A study of Homo sapiens with 6 samples.

Results

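The clustered, replication-dependent histone genes were examined in TC28a2, a line of immortalised human chondrocytes. They were taken by symbol, as every row of the count table whose Entrez ID maps to H1-1 to H1-6 or to a numbered H2AC, H2BC, H3C or H4C gene. This gave 69 genes of 28395 in the table: 6 encode the linker histone H1, 17 encode H2A, 18 encode H2B, 13 encode H3 and 15 encode H4. By the RefSeq annotation 55 lie on chromosome 6, 13 on chromosome 1 and 1 on chromosome 12. The cells had been transfected with a vector for overexpression of FAP (3 libraries) or with a control vector (3 libraries), and RNA was isolated with TRIzol after 48 h and sequenced as DRUG-seq libraries. FAP stands for fibroblast activation protein, a serine protease of the cell surface. The title of the series places the experiment in work on senescent cells and the transcription factor ZEB1 in osteoarthritis. All libraries come from 1 cell line, and the labels name no promoter for the vector and do not say whether the replicates were separate cultures, and the replicate spread behind every p-value may thus be technical.

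Replication-dependent histone genes supply the histones that package newly made DNA. Their transcription rises at entry into S phase, when cyclin E and CDK2 phosphorylate NPAT, a coactivator of histone genes. Their messenger RNAs mostly end in a short stem-loop bound by SLBP (stem-loop binding protein) in place of a poly(A) tail, and the U7 snRNP directs the cut after it. DRUG-seq, as generally described, primes cDNA synthesis on poly(A), so counts for these genes come from transcripts or stretches that such a primer can reach, and the level of a histone mRNA in the cell is not what is counted.

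Total counts per library ran from 6275038 to 13839743 in the FAP group and from 5736056 to 12446373 in the control group, and a gene with no count in a library may still have been present at up to 0.217 to 0.523 CPM (counts of a gene per 1000000 counts of its library; the limit is 3 counts per library and covers counting error only). FAP had 1396, 3182 and 4733 counts in the FAP libraries, against 0, 11 and 5 in the controls (log2 fold change 8.80, SE 0.30, adjusted p = 4.2294e-14, edgeR). Of 14 chondrocyte markers, SOX9 alone passed the low-count filter, at 37.4 ± 5.66 CPM with the FAP vector and 28.8 ± 5.31 CPM with the control vector (SD, n = 3 each). COL2A1 and ACAN, which define cartilage matrix, had at most 4 and 15 counts in a library, and CHAD had none. All 6 mesenchymal markers passed it and none was called; FN1, COL1A2 and COL1A1 had the smallest p-values, with log2 fold changes of 0.15, 0.16 and 0.16. Of 9 markers of other cell types, CD68 and PECAM1 passed the filter, PECAM1 on 12, 20 and 24 counts in the FAP libraries and 1, 4 and 9 in the controls (adjusted p = 0.293, edgeR), and the 9 together stood at 18.0 to 19.6 CPM in the FAP libraries and at 16.1 to 19.1 CPM in the controls. FAP replicate 3 stood farther from the other FAP libraries than those did from each other: the chi-square per degree of freedom between libraries was 16.2 against replicate 1 and 15.5 against replicate 2, 5.74 between replicates 1 and 2, and 5.21 to 6.78 among the controls. Where leaving out that library made or ended a call of a histone gene or a companion gene, both values are given. Without it, 248 of 13305 tested genes (1.86%) were called in edgeR, against 30 of 13373 (0.224%) with all libraries.

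Sequence features bear on what a poly(A) primer can reach, so they are given first. The histone stem-loop consensus, 6 bases of stem, 4 of loop and 6 of stem with some letters free, was searched on the transcript strand of every GENCODE v29 transcript. It was in at least 1 transcript of 30 of the 69 genes (43.5%), against 15 of 25387 other genes in the table (0.0591%). Many GENCODE models of these genes stop at or near the stop codon (31 genes have no transcript longer than 450 bases), so an absent match says only that these letters are not in the model. Its 5 forms are shown 5′ to 3′ because they are the ending that sets these mRNAs apart, with the stem in capitals and the loop in lower case.
H2AC13, H2AC18, H3C14 and 14 other genes: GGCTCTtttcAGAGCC
H4C11 and 4 other H4 genes: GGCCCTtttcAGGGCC
H2BC4, H2BC5, H2BC7 and H3C8: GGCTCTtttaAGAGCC
H4C9, H4C14 and H4C15: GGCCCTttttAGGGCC
H2AC11: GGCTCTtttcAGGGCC
All 8 H4 genes with a match held the second or the fourth form, and no gene of another class did. In 24 of the 30 genes a transcript runs more than 50 bases past the stem-loop, beyond where the replication-dependent mRNA is cut. The genes with such an extension held 1.16% of all counts of the 69 genes, and all 30 genes with a match held 5.61%. No extension could be scored for genes without a match. These include H4C3, H1-2, H1-4, H2AC20, H1-5 and H2BC12, so the 1.16% depends on which models are long.

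The second feature was the stretch of 20 bases with the most adenines in any transcript of the gene, shown for the genes that carry most counts or a result below. Adenines are in capitals.
H4C3, last 20 bases of a 435-base transcript, after the stop codon: AAAAAAcAAAAAcAAAAAAA
H1-2, coding: ctAAgAAAAcAccgAAgAAA
H1-4, coding: AAAAAAgcgAAAAgcccgAA
H1-5, coding: AAgAAgAAggcAActAAgAA
H1-3, coding: gAAgAAAAgcAtcAAAAAgA
H2AC20, end of the coding sequence: AcAAAgccAAAAgcAAAtAA
H2AC18, coding: AAcgAcgAggAActgAAcAA
H2BC4, after the stop codon: AAAcAtAAAgAcAAAAttAA
H4C11, coding: tAAAgtActgcgcgAcAAtA
H4C3 had 18 adenines of 20, the H1 genes 12 or 13, and H4C11 had 8. The other tested genes had a median of 15 (12999 genes with a transcript). A maximum over all windows can rise with the length and number of transcripts, which were not matched between the sets. Of the 15 H4 genes, H4C3 alone was above 15. H2BC8 had 20 adenines of 20 in a 1534-base transcript and a mean of 0.37 CPM, and no other of the 69 genes exceeded H4C3. Over all 69 genes the Spearman rank correlation of mean CPM with this number of adenines was 0.11, and 0.104 without the H1 genes. The part of the adenine stretch in the counts of H4C3 was not tested.

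**Figure D1:**
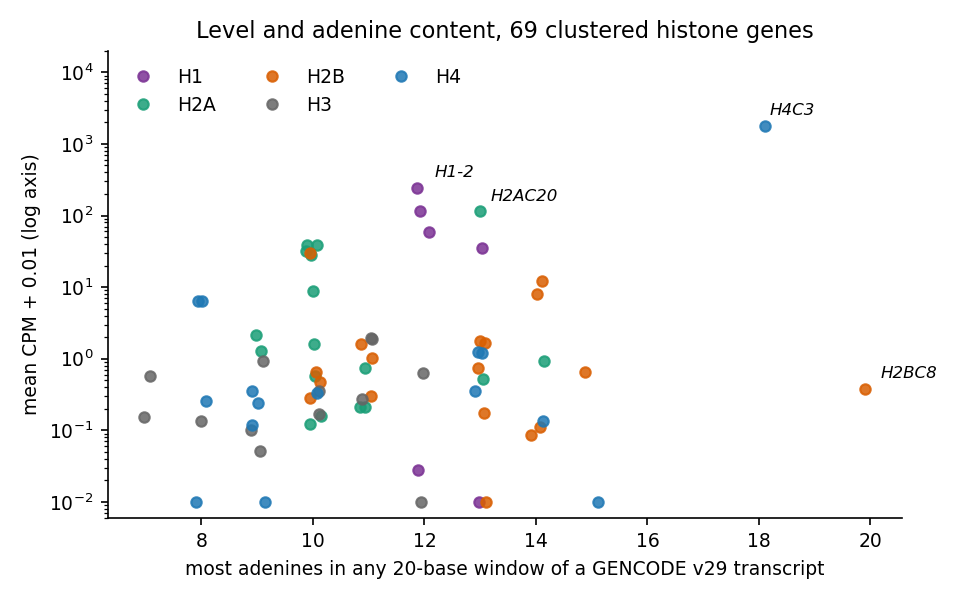
Mean CPM over the 6 libraries (y axis, log scale, 0.01 added so that genes with no count can be drawn) against the largest number of adenines in any 20-base window of a GENCODE v29 transcript (x axis), 1 point per clustered histone gene, coloured by class and shifted slightly sideways. H4C3 stands alone at 18 adenines and the highest level, and H2BC8, at 20 adenines, is near the bottom.

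The promoters were searched for motifs known from histone genes. RefSeq promoters (GRCh38.p14, 250 bases before to 50 after the start) were matched for 64 of the 69 genes. All motifs were searched on both strands, and a gene counted if any of its listed promoters held the letters. The TATA box letters TATAAA were in 43 genes (67.2%), against 13.99% of all 27305 genes with a promoter. CCAAT, the core of the CCAAT box bound by NF-Y, was in 54 genes (84.4%), against 39.7% of all genes with a promoter. It was in all 6 H1, all 16 H2A, all 18 H2B and all 11 H3 genes examined, and in 3 of 13 H4 genes. The octamer ATTTGCAT, known from H2B promoters as the site of OCT1, was in 14 of 18 H2B and 11 of 16 H2A genes. It was in 1 of 11 H3 genes and in no H1 or H4 gene, against 2.19% of all genes with a promoter. H2A and H2B genes often lie head to head and share 1 promoter region, so these matches are not independent. Matches of different motifs did not overlap. TATAAA was in 8 of 10 genes with at least 1000 counts and a matched promoter, and in 11 of 17 genes with under 10 counts. No promoter of H4C3, the gene with the most counts, was matched, so the motif results leave it out.

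Most clustered histone genes had few reads. At least 1 count was found for 63 of the 69, and 39 had a count in all 6 libraries. No count was found for H1-1, H2BC1, H3C6, H4C6, H4C7 and H4C9, and 11 genes had 1 to 9 counts in all (H1-6, H2AC7, H2BC6, H2BC7, H2BC26, H3C1, H3C2, H3C4, H3C7, H4C13 and H4C16). The 3 genes known mainly from testis, H1-6, H2AC1 and H2BC1, summed to 0, 0 and 0.815 CPM in the FAP libraries and to 0, 0.328 and 0.158 CPM in the controls. The 69 genes together held 158174 counts, and the 11 genes with at least 1000 counts held 97.3% of them. These 11 were H4C3, H1-2, H1-3, H1-4, H1-5, H2AC13, H2AC14, H2AC18, H2AC19, H2AC20 and H2BC12. By class, H4 held 69.4% of the counts, H1 17.8%, H2A 10.2%, H2B 2.30% and H3 0.284%, although the nucleosome holds equal numbers of the 4 core histones. The genes took 0.197%, 0.208% and 0.321% of all counts in FAP replicates 1, 2 and 3, and 0.297%, 0.273% and 0.258% in control replicates 1, 2 and 3.

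H4C3, which encodes histone H4 (Entrez 8364; GRCh38.p14, chromosome 6, 26103933 to 26104337), had 68.8% of all counts of the 69 genes. It ranked 74 of 28395 genes by mean CPM. Per kilobase of gene or transcript its level was 4421 CPM, which was 13.1 times that of H1-2, at 336 CPM per kilobase, followed by H2AC20 at 230 and H1-4 at 149. Counts of a poly(A)-primed assay need not scale with length, and in CPM with no division by length H4C3 was at 7.28 times H1-2. The other H4 genes mostly encode the same protein, and their summed level was 18.6 ± 5.24 CPM in the FAP libraries and 15.01 ± 3.77 CPM in the control group (SD, n = 3 each).

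H4C3 had 7331, 17395 and 31124 counts in FAP replicates 1, 2 and 3, and 12404, 18823 and 21698 counts in control replicates 1, 2 and 3. Scaled to library size, its level was 1169.9, 1228 and 2307 CPM in the FAP libraries and 2266, 2056 and 1717 CPM in the controls. FAP replicates 1 and 2 lay below all 3 controls and FAP replicate 3 above them, so the groups overlapped. The means were 1568 ± 640.2 CPM with the FAP vector and 2013 ± 277 CPM with the control vector (SD, n = 3 each), and the log2 fold change of -0.36 (SE 0.18) was not called (adjusted p = 0.532, edgeR). Without FAP replicate 3 it was -0.75 (SE 0.11, adjusted p = 2.33e-05, edgeR), a call. In that library H4C3 stood at 1.92 times the mean of the other FAP libraries, and 41 of 8666 genes at 10 CPM or more (0.473%) stood as far from theirs. Without any 1 of the other 5 libraries H4C3 was not called, with log2 fold changes between -0.46 and -0.18.

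The other 68 genes together varied less between libraries. Their summed level was 803, 803 and 810.2 CPM in FAP replicates 1, 2 and 3, and 850.4, 759.9 and 827.0 CPM in control replicates 1, 2 and 3. The FAP libraries lay within the range of the controls, and the group means differed by -7.22 CPM. That is less than the SD of the controls (47.0 CPM) and more than that of the FAP libraries (4.35 CPM). All 69 genes together summed to 1972, 2031 and 3117 CPM in the FAP libraries and to 3116, 2816 and 2544 CPM in the controls. The means differed by -452 CPM, of which H4C3 made up -445.0 CPM. The SDs were 645 CPM (FAP) and 286 CPM (control), and the groups overlapped. No test is given for these sums. In RNA from whole cultures, a difference in such sums could not separate the number of cells in S phase from the histone RNA per cell. Nor could it separate either of them from the part of that RNA that a poly(A) primer reaches.

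**Figure D2:**
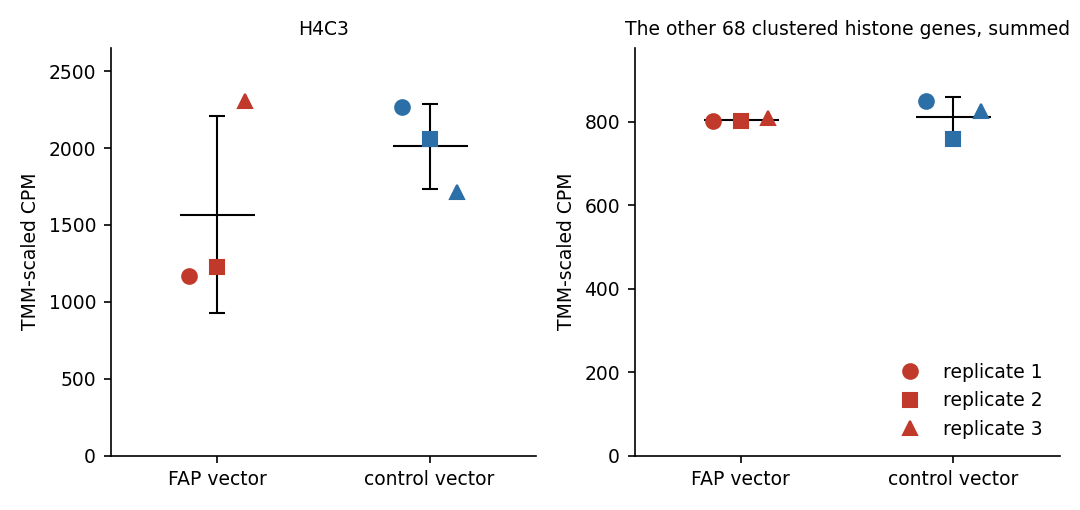
TMM-scaled CPM (y axes, each from 0) of H4C3 (left panel) and of the other 68 clustered histone genes summed (right panel) in each library, FAP vector left of control vector; markers give the replicate, the wide line the mean and the bar the SD (n = 3). H4C3 in FAP replicate 3 stands at 2307 CPM, above FAP replicates 1 and 2 at 1169.9 and 1228 CPM, while the sum of the other genes stays between 759.9 and 850.4 CPM.

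Of the 69 genes, 27 passed the low-count filter and were tested: 4 H1, 9 H2A, 6 H2B, 3 H3 and 5 H4 genes. None was called at an adjusted p under 0.05 over the 13373 genes tested by edgeR, where 30 genes (0.224%) were called, 13 higher and 17 lower in FAP (13 higher and 6 lower with library totals in place of TMM). Among the 27, 7 (25.9%) had an unadjusted p under 0.05, against 9.91% of all tested genes; 2 of them were higher in FAP (background 4.61%) and 5 lower (background 5.3%). In DESeq2, 1 clustered histone gene, H2BC4, was called of 12 with an adjusted p, against 1.16% of genes, and in limma-voom none was, against 0.157%. With no low-count filter 5 of 63 were called, all lower in FAP (H2AC18, H2AC19, H2BC4, H3C14 and H3C15), against 0.718% of genes. With 1 library left out in edgeR, H2BC4 was called without FAP replicate 1 (background 0.274%) and without control replicate 2 (0.0505%), and H4C3 and H2BC4 without FAP replicate 3 (1.86%). No clustered histone gene was called without FAP replicate 2 (0.0449%), control replicate 1 (0.0288%) or control replicate 3 (0.0225%). The 27 log2 fold changes were positive for 13 genes and negative for 14, with a median of -0.06 against 0.003 over all tested genes. With the FAP vector 3 of the 27 genes lay above all control libraries (11.1%), against 7.96% of all genes, and none lay below all of them, against 7.99%.

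Some of these genes are not independent observations. H2AC18 and H2AC19, H3C14 and H3C15, H4C11 and H4C12, and H4C14 and H4C15 had nearly equal counts in every library, with at most 10 counts between them for the first pair and at most 2 for the others. In each pair the shorter transcript matches the longer with 0 mismatches, so the counts of a pair are uncertain between its copies and are 1 observation. Counting 1 gene of each pair, 11 of 23 log2 fold changes were positive and 12 negative. Of the 23, 5 (21.7%) had an unadjusted p under 0.05 in edgeR, against 9.91% of all tested genes. Of these 5, 2 were higher in FAP (background 4.61%) and 3 lower (background 5.3%). With no low-count filter 3 of 59 were called, against 0.718% of genes. By annotated gene span, introns included, H4C15 spans H2AC19 and H3C15 and overlaps H2BC20P, and H2BC12 overlaps H4C9. H3C4 overlaps H2AC7, H2AC1 and H2BC1 overlap SLC17A1, and H2BC18 overlaps FCGR1A. H4C9, SLC17A1 and FCGR1A had no counts, and H2BC20P had 116, against 68 for H4C15. Overlap of exons was not examined and no strand setting is given, so reads there may be uncertain between genes.

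**Figure D3:**
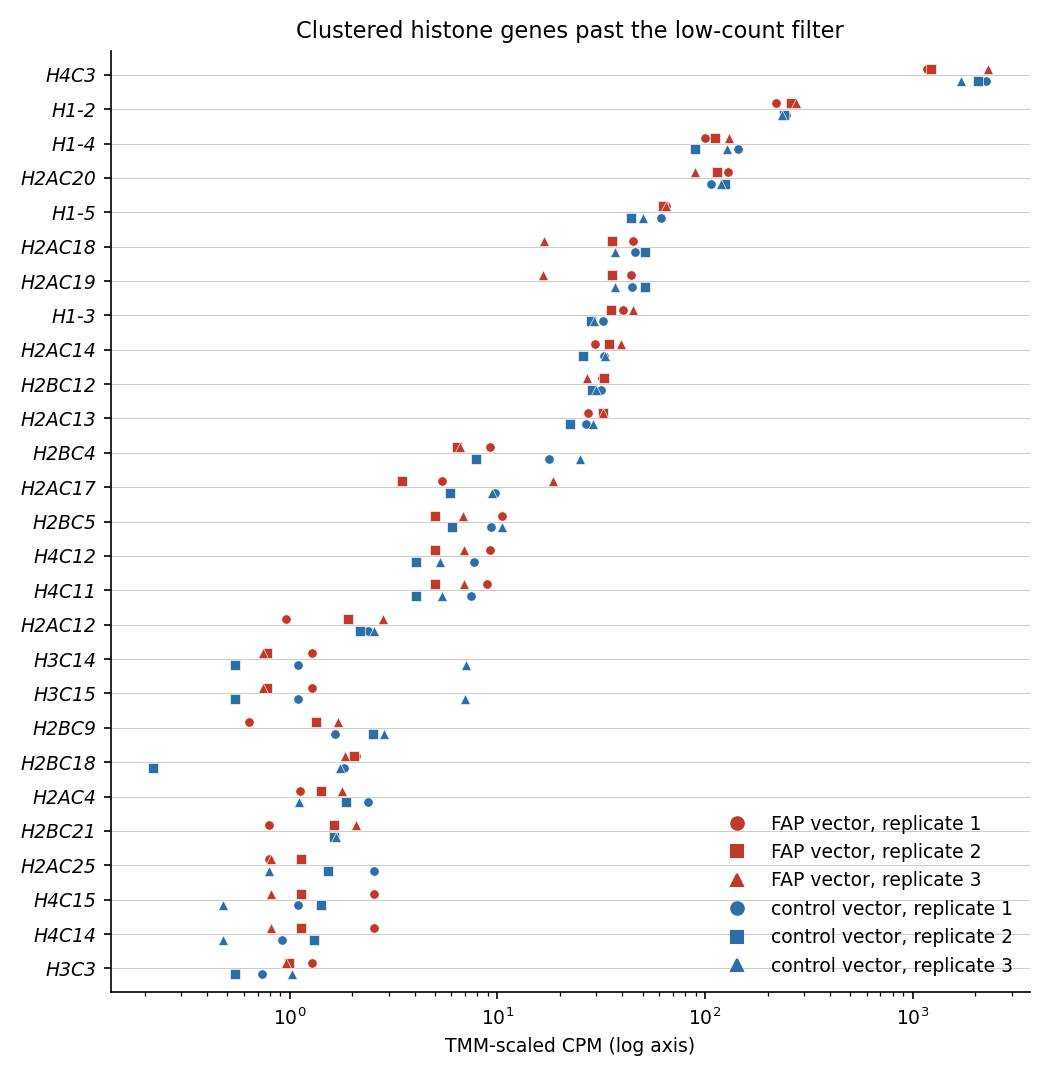
TMM-scaled CPM (x axis, log scale) of the 27 clustered histone genes past the low-count filter, ordered by mean, with 1 marker per library; FAP libraries are red and above the blue control libraries, and the marker shape gives the replicate. Levels span from 0.219 CPM (H2BC18 in control replicate 2) to 2307 CPM (H4C3 in FAP replicate 3), H1-3 and H1-5 show red markers to the right of all blue ones, and control replicate 3 stands alone at the right for H3C14 and H3C15.

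The H1 genes encode linker histones, which bind DNA between nucleosomes. H1-2 was the highest, with 1378, 3677 and 3707 counts in FAP replicates 1, 2 and 3 and 1343, 2198 and 2980 counts in control replicates 1, 2 and 3. Its level was 251 ± 28.3 CPM with the FAP vector and 240.4 ± 4.73 CPM with the control vector (log2 fold change 0.07, SE 0.10). The means differed by less than the SD of the FAP libraries but by more than that of the controls. H1-4 had 629, 1582 and 1762 counts in the FAP libraries and 790, 818 and 1606 in the controls, and its log2 fold change was -0.07 (SE 0.14).

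H1-3 and H1-5 were above all controls in every FAP library. H1-3 had 251, 498 and 608 counts in the FAP libraries and 176, 258 and 368 in the controls, or 40.1 ± 4.96 CPM and 29.8 ± 2.07 CPM (SD, n = 3 each), a log2 fold change of 0.43 that was not called (SE 0.13, adjusted p = 0.224, edgeR). H1-5 had 406, 889 and 879 counts in the FAP libraries and 337, 402 and 638 in the controls. Its level was 64.2 ± 1.30 CPM with the FAP vector and 52.0 ± 8.91 CPM with the control vector, and the log2 fold change was 0.31, not called (SE 0.12, adjusted p = 0.382, edgeR). The 6 H1 genes summed to 425, 469 and 516 CPM in the FAP libraries and to 483, 402 and 443 CPM in the controls, so the class as a whole overlapped between the groups.

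H2A genes encode a core histone that pairs with H2B. H2AC20 had 804, 1615 and 1208 counts in the FAP libraries and 583, 1146 and 1512 in the controls, a log2 fold change of -0.09 (SE 0.12). H2AC18 had 281, 506 and 225 counts in the FAP libraries and 253, 469 and 468 in the controls, and its near-identical copy H2AC19 had 277, 504 and 224 against 243, 470 and 466. FAP replicate 3 alone was low, at 16.7 CPM for H2AC18 against 44.8 and 35.7 CPM in FAP replicates 1 and 2 and 37.0 to 51.2 CPM in the controls. For H2AC18 the fitted difference on the log2 scale was -0.49 (SE 0.22, adjusted p = 0.463, edgeR) with all libraries and -0.16 without FAP replicate 3, and that of H2AC19 with all libraries was -0.49 (adjusted p = 0.467, edgeR). H4C3 was high and H2AC18 low in that same library.

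H2AC13 and H2AC14 lie near each other on chromosome 6 and were both slightly positive, neither called. H2AC14 had 184, 491 and 529 counts in the FAP libraries and 178, 237 and 418 in the controls (log2 fold change 0.19, SE 0.14), and H2AC13 stood at 30.6 ± 2.78 CPM with the FAP vector and 26.0 ± 3.30 CPM with the control vector (0.24, SE 0.13). H2AC17 stood at 5.43, 3.46 and 18.6 CPM in FAP replicates 1, 2 and 3 and at 9.68, 5.90 and 9.42 CPM in the controls. Its log2 fold change was 0.19 with all libraries and -0.96 without FAP replicate 3. The sign also changed without control replicate 2 (-0.013), in limma-voom (-0.14) and with replicate number as a block (-0.041). H2AC4, H2AC12 and H2AC25 averaged 1.44, 1.89 and 0.914 CPM with the FAP vector and 1.78, 2.36 and 1.63 CPM with the control vector, with log2 fold changes of -0.21 (SE 0.47), -0.25 (SE 0.42) and -0.69 (SE 0.54).

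Among the H2B genes, H2BC4 (GRCh38.p14, chromosome 6, 26113170 to 26123926) had the smallest p of all 27. It had 58, 90 and 89 counts in FAP replicates 1, 2 and 3 and 97, 72 and 314 in control replicates 1, 2 and 3, or 9.26, 6.35 and 6.596 CPM against 17.7, 7.87 and 24.9 CPM. FAP replicate 1 was higher than control replicate 2, so the groups overlapped. The means were 7.40 ± 1.61 CPM with the FAP vector and 16.8 ± 8.53 CPM with the control vector (SD, n = 3 each), a log2 fold change of -1.23 (SE 0.29) that was not called (adjusted p = 0.102, edgeR). Without FAP replicate 1, FAP replicate 3 or control replicate 2 it was called, at adjusted p = 0.047, 0.0085 and 0.0101, with log2 fold changes of -1.39, -1.17 and -1.58 (edgeR). Without control replicate 3 the log2 fold change was -0.78 and the adjusted p 0.435.

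H2BC12, the H2B gene with the most counts, had 200, 460 and 364 counts in the FAP libraries and 173, 261 and 379 in the controls, a log2 fold change of 0.02 (SE 0.13). H2BC5, which shares the stem-loop letters of H2BC4, stood at 7.45 ± 2.82 CPM with the FAP vector and 8.62 ± 2.34 CPM with the control vector (-0.27, SE 0.27). H2BC9 and H2BC21 had log2 fold changes of -0.88 (SE 0.44) and -0.06 (SE 0.46), at means of 1.23 and 1.499 CPM with the FAP vector and 2.34 and 1.65 CPM with the control vector. H2BC18 was above all controls in every FAP library, at 1.99 ± 0.12 CPM against 1.26 ± 0.90 CPM, on 2 counts in control replicate 2 (log2 fold change 0.67, SE 0.53, adjusted p = 0.711, edgeR; 0.16 without that library). Of 6 genes of the list with polyadenylated transcripts known from other work, H1-2, H2BC4, H2BC5, H2BC12 and H2BC21 were tested and H2AC6 was not; the 6 summed to 273, 306 and 319 CPM in the FAP libraries and to 306, 285 and 305 CPM in the controls.

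**Figure D4:**
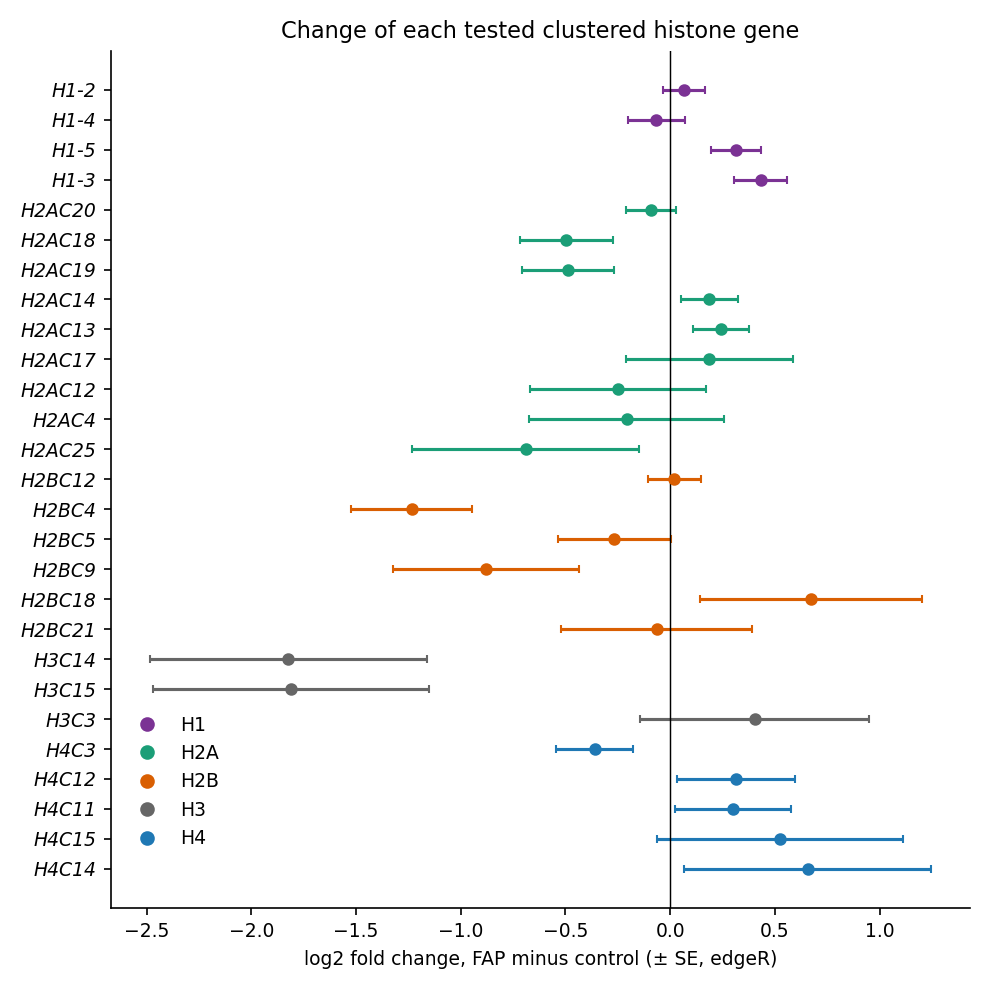
Log2 fold change of FAP minus control (x axis) for the 27 tested clustered histone genes, grouped and coloured by class, with the SE from edgeR as the bar. H1-3 and H1-5 lie to the right of 0, H2BC4, H3C14 and H3C15 to the left, and none passed the adjusted threshold.

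The H3 genes, which encode the core histone that pairs with H4, had the fewest reads. H3C14 had 8, 11 and 10 counts in the FAP libraries and 6, 5 and 89 in the controls, and its copy H3C15 had 8, 11 and 10 against 6, 5 and 88. Control replicate 3 alone was high, at 7.04 CPM of H3C14, against 0.741 to 1.28 CPM in the FAP libraries and 1.10 and 0.546 CPM in control replicates 1 and 2. The log2 fold changes of -1.82 (SE 0.66) for H3C14 and -1.81 (SE 0.66) for H3C15 were not called (adjusted p = 0.358 for each, edgeR), and without control replicate 3 neither gene passed the filter. H3C3 stood at 1.08 ± 0.17 CPM with the FAP vector and 0.769 ± 0.244 CPM with the control vector (0.40, SE 0.55). The H4 genes other than H4C3 that were tested had positive log2 fold changes, none called: 0.30 (SE 0.28) for H4C11, 0.31 (SE 0.28) for H4C12, 0.66 (SE 0.59) for H4C14 and 0.52 (SE 0.59) for H4C15. H4C11 and H4C12 were at 6.95 and 7.05 CPM with the FAP vector and 5.64 and 5.67 CPM with the control vector. H4C14 and H4C15 were at 1.499 CPM each with the FAP vector and 0.900 and 0.997 CPM with the control vector. Single libraries carried these values: without FAP replicate 1 the log2 fold changes were 0.16 for H4C14, 0.03 for H4C15, 0.12 for H4C11 and 0.11 for H4C12. Without control replicate 3 those of H4C14 and H4C15 were 0.28 and 0.11, and without control replicate 2 those of H4C11 and H4C12 were 0.12 and 0.13.

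**Figure D5:**
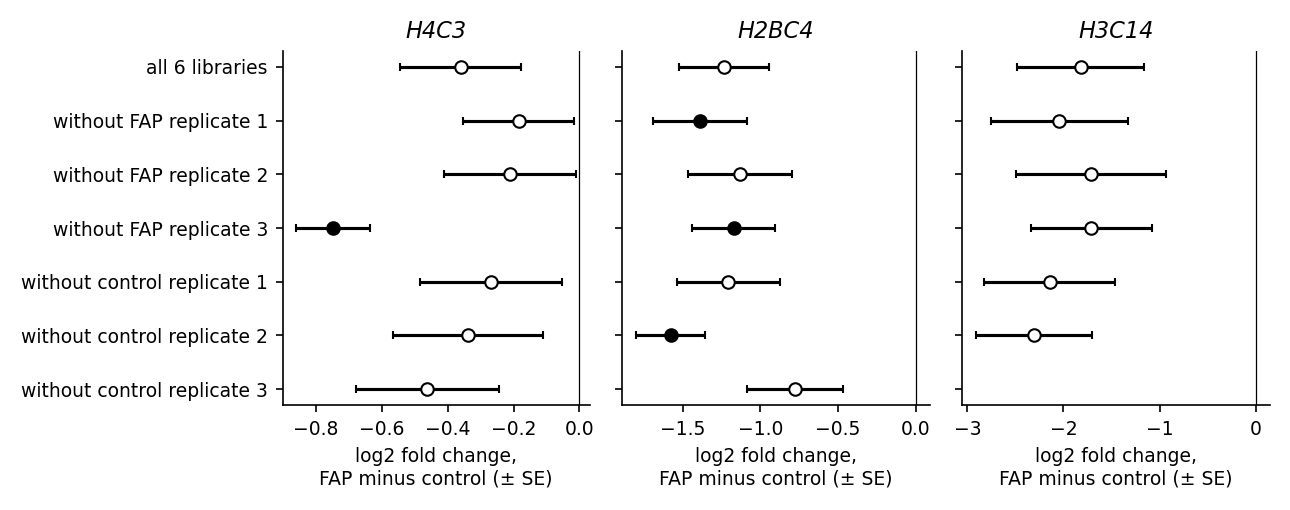
Log2 fold change of FAP minus control with its SE (x axes) for H4C3, H2BC4 and H3C14, with all 6 libraries and with each library left out in turn (rows); filled points are called at an adjusted p under 0.05 and open points are not. H4C3 is filled without FAP replicate 3 only, and H3C14 has no point without control replicate 3 because it then failed the low-count filter.

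A further 25 genes had 10 to 65 counts over all libraries and failed the filter, at means of 0.150 to 1.01 CPM: H2AC1, H2AC6, H2AC8, H2AC11, H2AC15, H2AC16, H2AC21, H2BC3, H2BC8, H2BC10, H2BC11, H2BC13, H2BC14, H2BC15, H2BC17, H3C8, H3C10, H3C11, H3C12, H3C13, H4C1, H4C2, H4C4, H4C5 and H4C8. At this depth a difference between the groups was not detectable for them one by one.

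Genes that act on histone genes and their products were compared in the same fit. Of 12 genes of histone gene transcription, CCNE2 (cyclin E2) was the only one called. It fell to 44.5, 47.2 and 34.3 CPM in the FAP libraries, against 95.5, 80.4 and 82.0 CPM in the controls (log2 fold change -1.03, SE 0.12, adjusted p = 2.45e-04, edgeR). CCNE1 (cyclin E1) stood at 31.9 ± 1.55 CPM with the FAP vector and 36.6 ± 2.11 CPM with the control vector. It was below all controls but not called (log2 fold change -0.20, SE 0.12, adjusted p = 0.599, edgeR). NPAT, the target of cyclin E and CDK2 at histone genes, stood at 18.8 ± 1.82 CPM with the FAP vector and 19.8 ± 1.66 CPM with the control vector (log2 fold change -0.08, SE 0.15). E2F1, a factor of S phase entry, had a log2 fold change of -0.23, and YY1, a zinc finger factor, one of 0.21, neither called.

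None of 24 genes of histone mRNA processing was called with all libraries. SLBP stood at 165 ± 25.2 CPM with the FAP vector and 169 ± 10.4 CPM with the control vector (log2 fold change -0.03, SE 0.11). The smallest p-values were those of TUT4, a uridylyltransferase (log2 fold change 0.32), MIF4GD, a partner of SLBP (1.05, at 3.03 ± 0.66 CPM with the FAP vector and 1.51 ± 0.43 CPM with the control vector), and LSM10, a protein of the U7 snRNP (-0.23). Without FAP replicate 3, 1 gene of the list was called, TENT4A, a poly(A) polymerase, named after its values were seen (log2 fold change 0.46, adjusted p = 0.0467, edgeR, against 0.29 and 0.553 with all libraries). None of 26 tested S phase genes was called with all libraries either, with 15 positive and 11 negative log2 fold changes. LIG1 (DNA ligase 1), GINS1 and MCM6 (both of the replicative helicase) had the smallest p-values, with log2 fold changes of 0.47, 0.31 and 0.21. Without FAP replicate 3 LIG1 was called (log2 fold change 0.58, adjusted p = 0.040, against 0.316 with all libraries, edgeR). In that setting 1.86% of all tested genes were called. The 27 genes of that list summed to 3937, 4021 and 4010.0 CPM in the FAP libraries and to 4039.7, 4177 and 3867 CPM in the controls, and the FAP libraries lay within the range of the controls.

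None of 22 histone chaperones and modifiers was called with all libraries. HAT1, which acetylates new H4, stood at 70.0 ± 9.83 CPM with the FAP vector and 55.1 ± 1.82 CPM with the control vector (log2 fold change 0.34, SE 0.11, adjusted p = 0.32, edgeR), and without FAP replicate 3 it was called (log2 fold change 0.40, adjusted p = 0.049, edgeR). NAP1L4, a chaperone of H2A and H2B, had a log2 fold change of -0.25 and CABIN1, of the HIRA complex, one of 0.31. Most replacement histones can also be made outside S phase, mainly from polyadenylated mRNA. With all libraries, none of the 12 tested was called. H2AZ1 stood at 738 ± 94.3 CPM with the FAP vector and 739.5 ± 35.98 CPM with the control vector, H2AX at 209 ± 18 and 212 ± 19 CPM, H3-3A at 753 ± 56.5 and 728 ± 43.5 CPM, and H3-3B at 819.5 ± 16.6 and 872 ± 20.8 CPM. H2AJ and H1-10 had log2 fold changes of 0.39 and 0.24 (adjusted p = 0.373 and 0.465, edgeR). Without FAP replicate 3 both were called, at 0.59 (adjusted p = 4.1e-04, edgeR) for H2AJ and 0.35 (adjusted p = 0.041, edgeR) for H1-10. The share called over all tested genes without that library was 1.86%. The 12 genes summed to 3774, 3551 and 3335 CPM in the FAP libraries and to 3529, 3592 and 3497 CPM in the controls, so the groups overlapped.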

How the data were processed

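The authors deposited 1 table of raw read counts by Entrez gene for 3 FAP and 3 control libraries. Per the submitters' processing notes, HISAT2, featureCounts, Subread and GRCh38 were used. The sources used here give no version, strand setting, rule for reads with several alignments, or use of molecular identifiers, and the rule for several alignments could place reads at near-identical histone genes. RefSeq gave symbols for 27745 of 28395 IDs.

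Tests were run in R 4.3.3 with the quasi-likelihood test of edgeR 4.0.16 (two-sided, FAP minus control, no covariate) after TMM scaling and filterByExpr, which required a minimum count of 10 and a total of 15. P-values were adjusted over 13373 genes (Benjamini-Hochberg), and an adjusted p under 0.05 was a call. The test was checked on simulated data. CPM are TMM-scaled, and levels per kilobase used the RefSeq gene span up to 1000 bases, otherwise the longest GENCODE v29 transcript. No 2 libraries of a group agreed within sampling noise.

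Alternatives were DESeq2 1.42.0, limma-voom (limma 3.58.1), other scalings and filters, thinning, the replicate block and each library left out. All tested histone genes are named, untested ones from 10 counts upward by name, and in each companion list the called genes, the 3 smallest p-values and FAP, CCNE1, CCNE2, SLBP, NPAT, H2AX, H2AZ1, H3-3A and H3-3B. A result that this rule takes in is not reported here. Members and lists were chosen with earlier results of these data known. Figures were drawn with matplotlib 3.10.9.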

Additional observations from a re-analysis of the deposited data

How the results depend on the processing

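In the main edgeR fit 27 of the 69 clustered histone genes were tested and none was called, against 0.224% of all tested genes. DESeq2 called 1 of 12 with an adjusted p, against 1.16% of genes. EdgeR with no low-count filter called 5 of 63, or 3 of 59 counting 1 gene of each near-identical pair, against 0.718% of genes. With a library left out, 0 to 2 were called, against 0.0225% to 1.86% of genes. Genes called over the whole table numbered 30, against 98 in DESeq2, 19 with library totals (13 higher and 6 lower), with or without the FAP counts, 152 with no filter and 3 to 248 with a library left out (248 without FAP replicate 3); the causes were not tested. Limma-voom called 21. The summed level kept its negative difference throughout, between -824 and -252 CPM with a library left out and -7.22 CPM without H4C3. With all libraries it was -452 CPM, against SDs of 645 CPM (FAP) and 286 CPM (control). Without H4C3 the SDs were 4.35 CPM (FAP) and 47.0 CPM (control). Each of these differences with all libraries was smaller than the larger of its SDs. Replicate numbers did not pair the libraries: correlations of same-numbered deviations were -0.00735, 0.02927 and -0.001478. With the replicate block 44 of 13373 genes were called, among them 1 of 27 clustered histone genes, H2BC4 (log2 fold change -1.11, adjusted p = 0.041, edgeR).

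Of 738 comparisons of a named gene's log2 fold change with an alternative, 694 kept sign and side of the threshold, 15 passed the threshold and 29 changed sign, all of those 29 for genes with a size of 0.21 or less. H2AC17 was -0.14 in limma-voom and -0.041 under the replicate block. With library totals (without FAP counts in brackets) the log2 fold changes were 0.033 (0.034) for H2AX, 0.047 (0.048) for H2AZ1 and 0.024 (0.025) for SLBP. With a library left out, ranges were -0.24 to 0.077 for H1-4, -0.96 to 0.61 for H2AC17, -0.20 to 0.040 for H2AC20, -0.50 to 0.0094 for H2AC4, -0.10 to 0.059 for H2AX, -0.10 to 0.082 for H2AZ1, -0.036 to 0.11 for H2BC12, -0.34 to 0.16 for H2BC21, -0.0026 to 0.10 for H3-3A and -0.17 to 0.033 for SLBP. Depth limits the low genes: 42 of the 69 failed the low-count filter.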
